A study of Mus musculus with 6 samples.

Results

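Amino acid transporters are described here in satellite cells, the stem cells of skeletal muscle, 24 h after muscle injury. The 10 genes were taken by name from a list of transporters that bring amino acids into growing cells: Slc3a2, Slc7a1, Slc7a5, Slc7a6, Slc7a7, Slc1a4, Slc1a5, Slc38a1, Slc38a2 and Slc38a4. All 10 were among the 45527 named genes of the count table, and all 10 passed the filter on low counts. RNA was sequenced from 3 control libraries (genotype Pax7creER:Paxbp1flox/+:R26R-YFP) and 3 libraries labelled Paxbp1-iKO, an inducible knockout (genotype Pax7creER:Paxbp1flox/flox:R26R-YFP). The lower hindlimb muscles of all mice had received 30 µl of cardiotoxin, a toxin that kills muscle fibres and starts regeneration, and the cells were sorted for yellow fluorescence. Both groups carried an inducible Cre recombinase driven by the Pax7 promoter and a Cre-activated reporter, so the controls could also lose 1 allele of Paxbp1. The study's design names 3 pairs of control and iKO mice, as many as there are libraries in a group, but no label ties a library to a mouse or a pair, and the age of the mice is not stated in the labels used here. The p-values of fold changes are set against the spread among the 3 libraries of a group, which the test moderates with that of other genes.

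Amino acid transporters of the plasma membrane fall into families that differ in substrate and in driving force. Slc3a2 encodes a glycoprotein, the heavy chain CD98, which carries no substrate itself but brings light chains such as those of Slc7a5, Slc7a6 and Slc7a7 to the cell surface. The light chains are exchangers: each import of an amino acid is paid for by the export of another, often glutamine, which sodium-driven carriers of the Slc1 and Slc38 families accumulate. Leucine and arginine within the cell are sensed and activate the growth kinase mTORC1, which satellite cells use as they leave quiescence.

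Named genes received 23299344 to 28016271 counts per library, of which the 10 transporters took 0.372% to 0.428%. Paxbp1 itself was checked first. The controls had 1583, 1917 and 1592 counts of it and the iKO-labelled libraries 2745, 3162 and 3125. Whole-gene counts of Paxbp1 were thus higher in the libraries labelled as its knockout (log2 fold change 0.68 ± 0.13, adjusted p = 0.00954). Such counts cannot show whether a floxed part was deleted, so this check cannot settle whether the labels are right. Groups are therefore named by their labels, and each direction below is drawn from those labels. The summed level of 12 satellite cell markers was 9777 to 10249 CPM (counts scaled to library size) in the controls and 12437 to 13056 CPM in the iKO-labelled libraries, with 7 markers called higher and 3 lower. The sum of 12 macrophage and monocyte markers was 242 to 303 CPM and 227 to 418 CPM, with none called. Sums in controls and iKO-labelled libraries were 388 to 604 and 346 to 551 CPM for 7 fibro-adipogenic markers, 64.8 to 249 and 120 to 145 CPM for 7 endothelial markers, and 222 to 324 and 106 to 128 CPM for 6 smooth muscle and pericyte markers. The muscle fibre sum was 16.4 to 64.1 and 12.5 to 17.2 CPM, and the Schwann cell sum 6.20 to 28.8 and 7.00 to 19.4 CPM. Neutrophil and lymphocyte sums stayed under 10 CPM in every library. The erythroid list rested on Alas2 alone, at 0.919 CPM or less in every library. The globins Hba-a1 and Hbb-bs were not analysed, so the amount of red cell RNA was not assessed. In these lists of other cell types, Acta2 of smooth muscle and Acta1 of muscle fibres were called, both lower. The lower smooth muscle and pericyte sum lay mostly in Acta2, whose mean was 197 CPM for control and 41.9 CPM for iKO. Rgs5, the next most abundant marker of that list, had means of 51.3 CPM (control) and 51.6 CPM (iKO). Apart from Acta2, no marker of that list was called. No marker in the table was at 0 in all 6 libraries. The part of other cell types in the results below was not tested except where a value is given. In sorted bulk samples, fewer cells with a transcript and less of it per cell cannot be told apart.

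Of the 10 transporters, 6 were lower in the iKO-labelled libraries, and none was higher. Of all 16252 genes tested, 20.4% were called in either direction, 12.3% lower and 8.15% higher. Control and iKO-labelled values were fully separated for 6 of the 10, against 39.8% of all tested genes. The genes that fell were the light chains Slc7a5 and Slc7a6, the arginine and lysine carrier Slc7a1, the neutral exchangers Slc1a4 and Slc1a5, and the glutamine carrier Slc38a1. Slc3a2, Slc38a2, Slc38a4 and Slc7a7 were not past the test. The median log2 fold change of the 10 was -0.44, against 0.02 for all tested genes. A call here is a Benjamini-Hochberg adjusted p under 0.05 in the quasi-likelihood test of edgeR. A negative log2 fold change is a lower level in the iKO-labelled libraries, and ± beside a fold change is its standard error. Levels are given in FPKM as deposited, a count divided by gene length and by a size factor that scales each library. This allows genes of different length to be compared, as far as the lengths used hold. Those lengths were not given. Set against Slc7a5, counts and FPKM imply shorter lengths for Slc38a1, Slc38a2 and Slc7a6 than their exon lengths in GENCODE M21 (17236, 8838 and 4570 bases). Comparisons between groups for 1 gene do not depend on length.

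**Figure D1:**
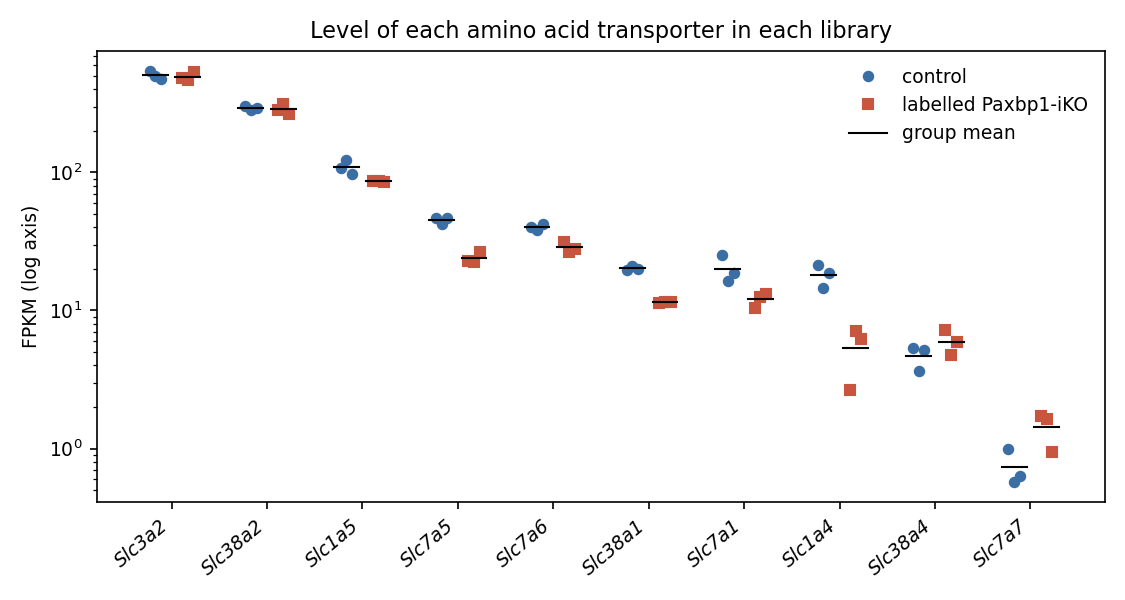
FPKM (log axis) of the 10 transporters in each of the 3 control and 3 iKO-labelled libraries, ordered by control level, with a line at each group mean. Slc3a2 and Slc38a2 lie highest and overlap between groups, while Slc7a5, Slc7a6, Slc7a1, Slc1a4, Slc1a5 and Slc38a1 are lower in every iKO-labelled library than in any control.

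The heavy chain was the most abundant of the 10. Slc3a2 (chr19:8706882-8723369, minus strand, GRCm38) was at 541, 503 and 475 FPKM in controls 1 to 3 and at 487, 468 and 531 FPKM in iKO 1 to 3. The groups overlapped, with iKO 3 above controls 2 and 3. Its log2 fold change was -0.05 ± 0.08 (adjusted p = 0.719), and the 95% interval of the fold ran from 0.857 to 1.09. The sign turns under other scalings: the log2 fold change was 0.08 with library totals alone, a scaling that moves the median of all tested genes from 0.02 to 0.15, and 0.03 with upper-quartile factors.

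Slc7a5 encodes the L-type light chain LAT1, which takes up leucine and other large neutral amino acids. The gene (chr8:121881150-121907694, minus strand) was at 47.0, 42.7 and 46.5 FPKM in controls 1 to 3 and at 23.0, 22.6 and 26.3 FPKM in iKO 1 to 3. Each iKO-labelled library was well below the lowest control, and replicates of a group lay close together. The level fell by 0.94 ± 0.10 on the log2 scale (adjusted p = 0.000616), and the call held under each of 17 alternative settings (adjusted p up to 0.0132).

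Slc7a6 encodes the light chain y+LAT2, which exchanges arginine for glutamine. It lies on the same chromosome (chr8:106168857-106198706, plus strand) and stood at 40.01, 38.3 and 42.5 FPKM in the controls and 31.2, 26.7 and 27.9 FPKM in iKO 1 to 3. The groups did not overlap, and iKO 1 lay nearest to the controls. The level fell by 0.51 ± 0.09 on the log2 scale (adjusted p = 0.00768), a call that held under each of the 17 alternatives (adjusted p up to 0.0468).

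Slc7a7 encodes y+LAT1, a close relative of the Slc7a6 product that is best known from gut, kidney and macrophages. It was the lowest of the 10, at 0.996, 0.576 and 0.629 FPKM in the controls and 1.73, 1.62 and 0.948 FPKM in iKO 1 to 3. These levels rest on 76, 50 and 55 counts in the controls and 164, 159 and 78 in the iKO-labelled libraries. iKO 1 and 2 were above all controls and iKO 3 was not, so the groups overlapped. The log2 fold change of 0.95 ± 0.41 was not past the test (adjusted p = 0.156), with a 95% interval of the fold from 0.997 to 3.73. The 12 macrophage and monocyte markers, none of them called, had the summed levels given above (242 to 303 CPM in the controls, 227 to 418 CPM in the iKO-labelled libraries), and their part in the Slc7a7 level was not tested. Slc7a7 (chr14:54369442-54417780, minus strand) shares 232 exonic bases, 7% of its exon length, with Oxa1l on the other strand. Reads of these genes there cannot be separated without strand, and Oxa1l, a gene of mitochondrial membrane insertion, had 341 to 905 counts per library (log2 fold change 0.39 ± 0.27, adjusted p = 0.367).

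**Figure D2:**
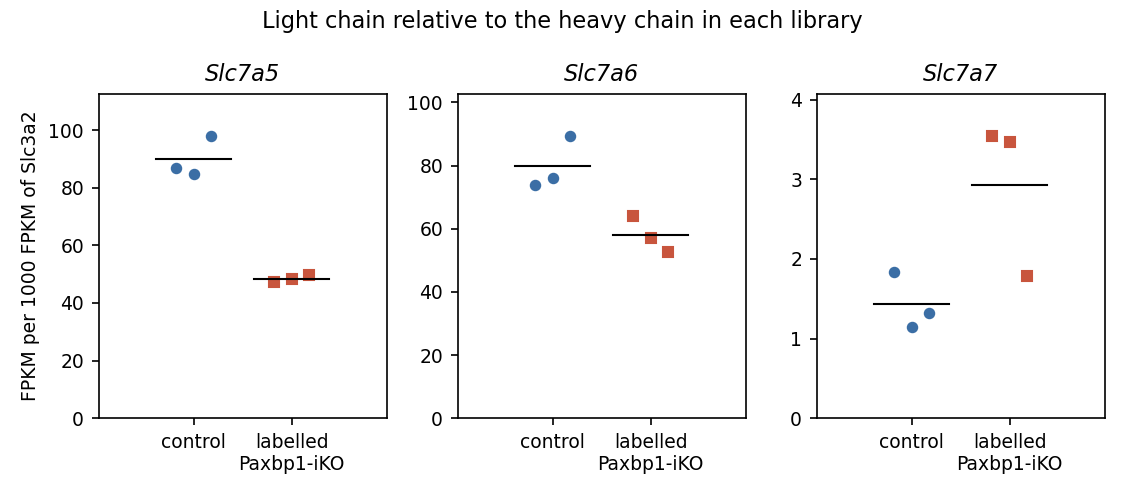
FPKM of each light chain per 1000 FPKM of the heavy chain Slc3a2 in each control and iKO-labelled library, with a line at each group mean and each vertical axis from 0. Slc7a5 and Slc7a6 separate the groups, at means of 89.9 against 48.3 and 79.8 against 57.9, while Slc7a7 stays under 4 in every library and its groups overlap.

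Since a light chain reaches the surface with the heavy chain, each light chain was also set against Slc3a2 within each library, a ratio that no library scaling can change. For every 1000 FPKM of Slc3a2 there were 87.0, 84.8 and 98.0 FPKM of Slc7a5 in the controls and 47.2, 48.2 and 49.6 in iKO 1 to 3. The ratio was thus lower in each iKO-labelled library than in any control. Slc7a6 stood at 74.0, 76.1 and 89.4 per 1000 FPKM of Slc3a2 in the controls and at 64.0, 57.1 and 52.7 in iKO 1 to 3, again without overlap. Exact two-sided permutation tests over libraries gave p = 0.1 for both ratios, the smallest p that 3 against 3 allows, and p = 0.2 for Slc7a7 (0.15, 0.15 and 0.2 after Benjamini-Hochberg adjustment over the 3 ratios).

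The family holds 6 light chains known to pair with Slc3a2 that were looked up here (Slc7a5, Slc7a6, Slc7a7, Slc7a8, Slc7a10 and Slc7a11), and they did not move together: 3 fell, 1 rose, 1 was not past the test and 1 was too low to test, beside 12.3% of all tested genes lower and 8.15% higher. Beside Slc7a5 and Slc7a6, Slc7a11 fell, the cystine importer xCT (7.71, 8.45 and 6.94 FPKM in the controls, 4.59, 4.73 and 6.18 FPKM in iKO 1 to 3). Its fall of 0.59 ± 0.14 on the log2 scale (adjusted p = 0.0226) was not called under 7 of 17 alternatives, among them the removal of controls 1 or 2 or of iKO 1 or 2 (adjusted p up to 0.16). The one that rose was Slc7a8, which encodes LAT2, the other L-type light chain, with a broader range of neutral substrates. Slc7a8 was at 20.5, 13.6 and 17.1 FPKM in the controls and at 30.6, 32.9 and 34.4 FPKM in the iKO-labelled libraries (0.92 ± 0.15, adjusted p = 0.00494), a call that ended on unfiltered log2(FPKM + 1) alone (adjusted p = 0.062). The ratio of Slc7a5 to Slc7a8 went from 2.30, 3.13 and 2.72 in controls 1 to 3 to 0.752, 0.685 and 0.764 in iKO 1 to 3. By FPKM, Slc7a5 was thus the more abundant L-type transcript in each control and Slc7a8 in each iKO-labelled library. This comparison was chosen after the values were seen and is given with no test.

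Cationic amino acids enter through Slc7a1, the uniporter CAT-1, which works without a heavy chain. Slc7a1 (chr5:148327410-148399904, minus strand) was at 25.1, 16.3 and 18.7 FPKM in the controls and 10.4, 12.5 and 13.2 FPKM in iKO 1 to 3. The groups did not overlap, but control 1 stood apart from the other controls. The level fell by 0.75 ± 0.17 on the log2 scale (adjusted p = 0.0176). The call ended under 4 of 17 alternatives: without iKO 1 (adjusted p = 0.0623), without iKO 2 (0.0573), with the replicate number as a block (0.0553) and on unfiltered log2(FPKM + 1) (0.192). The range over all 17 began at 6.48e-06. Slc7a2, a second cationic transporter, was lower in abundance and went the other way (3.79, 2.58 and 3.96 FPKM in the controls, 5.21, 5.83 and 5.72 FPKM in iKO 1 to 3). Its rise of 0.68 ± 0.18 on the log2 scale (adjusted p = 0.0324) was not called without control 1, control 2 or any single iKO-labelled library (adjusted p 0.05 to 0.106).

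The neutral exchangers of the Slc1 family both fell. Slc1a4 encodes ASCT1, an exchanger of alanine, serine, cysteine and threonine. The gene (chr11:20302180-20332713, minus strand) had 1951, 1519 and 1932 counts in the controls and 302, 836 and 611 in iKO 1 to 3, which is 21.4, 14.7 and 18.5 FPKM against 2.66, 7.16 and 6.22 FPKM. All iKO-labelled libraries lay below all controls, and iKO 1 was lowest. Of the 10 transporters it had the largest fall, 1.78 ± 0.34 on the log2 scale (adjusted p = 0.00898). The 95% interval of the fold ran from 0.168 to 0.502. Without iKO 1 the log2 fold change was -1.46 and still called, and among the 17 alternatives the call ended on unfiltered log2(FPKM + 1) alone (adjusted p = 0.107).

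Slc1a5 encodes ASCT2, the main glutamine exchanger of many dividing cells. Its level came after those of Slc3a2 and Slc38a2 (chr7:16781340-16798274, plus strand), at 108, 124 and 97.2 FPKM in the controls and 86.7, 87.2 and 84.8 FPKM in iKO 1 to 3. The iKO-labelled libraries were close together and just below control 3. The fall of 0.36 ± 0.09 on the log2 scale (adjusted p = 0.0284) was not called under 9 of 17 alternatives. These included upper-quartile factors (adjusted p = 0.0771), library totals (0.117) and the removal of control 1, control 2 or any single iKO-labelled library (0.06 to 0.0946), within a range over all alternatives of 0.00732 to 0.199.

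Promoter sequence was examined for 7 of the 10 genes, which had entries in the RefSeq table (GRCm38.p6). The windows ran from 250 bases before a start site to 50 bases after it, and genes could have several. Slc7a5, Slc1a5 and Slc38a1 had no entry. The letters TGATGNAA, the core of the element bound by ATF4 with C/EBP partners in the amino acid response, were searched on both strands and found in Slc1a4 and Slc7a7, 2 of the 7 genes, against 4.51% of all genes with a window. The stretch searched per gene was unlike: Slc7a7 had 5 windows, while all 27025 genes had 32851, of which 3.97% held a match. The E-box CACGTG, read by Myc among others, was found in none of the 7 and in 8.09% of all genes. The stretches below are shown because Slc1a4 had the largest fall and Slc7a7 was the other gene with a match. All are read 5′ to 3′ on the minus strand, which is the strand of both genes, and capitals mark the match. In Slc1a4 (chr11:20332710-20332739) the match is TGATGCAA on the opposite strand and crosses the start site. In Slc7a7 a match begins 141 bases before the outermost start site (chr14:54418052-54418111), and TGATGCAA crosses that start site (chr14:54417938-54417967).
Slc1a4: agcctccagcgtgcctcctgcgTTGCATCA
Slc7a7, upstream: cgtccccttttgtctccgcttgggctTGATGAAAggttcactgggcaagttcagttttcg
Slc7a7, start site: ctttaatttgggacctagaagcTGATGCAA
A match of letters is a description of the window, and a window without one says nothing about binding elsewhere.

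The Slc38 genes encode the sodium-driven SNAT carriers, which concentrate glutamine, alanine and other small neutral amino acids. Slc38a1, Slc38a2 and Slc38a4 are neighbours on the minus strand of chromosome 15 (96571418 to 96642913, 96687392 to 96699730 and 96994820 to 97055956). The gaps of 44.48 and 295.1 kb between them hold 0 other protein-coding genes in GENCODE M21. Of these neighbours Slc38a1 fell, and the other two were not past the test.

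Slc38a1, the carrier SNAT1, was at 19.7, 21.0 and 20.1 FPKM in the controls and at 11.4, 11.5 and 11.5 FPKM in iKO 1 to 3. Replicates differed by little in either group, and the gap between groups was many times their spread. Its fall of 0.84 ± 0.08 on the log2 scale (adjusted p = 0.000422) had the smallest adjusted p of the 10 and was called under all 17 alternatives (adjusted p up to 0.00614).

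Slc38a2 encodes SNAT2, the carrier that cells raise when amino acids run short. It stood at 301, 281 and 295 FPKM in the controls and 282, 311 and 265 FPKM in iKO 1 to 3. The iKO-labelled values lay on both sides of the controls. The log2 fold change was -0.05 ± 0.07 (adjusted p = 0.715), the 95% interval of the fold ran from 0.862 to 1.09, and the sign turned under library totals (0.09) and upper-quartile factors (0.03).

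Slc38a4, the carrier SNAT4, known mainly from liver and placenta, was low at 5.31, 3.67 and 5.15 FPKM in the controls and 7.18, 4.77 and 5.92 FPKM in iKO 1 to 3. The groups overlapped, since iKO 2 was below controls 1 and 3. The log2 fold change was 0.32 ± 0.22 (adjusted p = 0.375), with a 95% interval of the fold from 0.876 to 1.78.

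**Figure D3:**
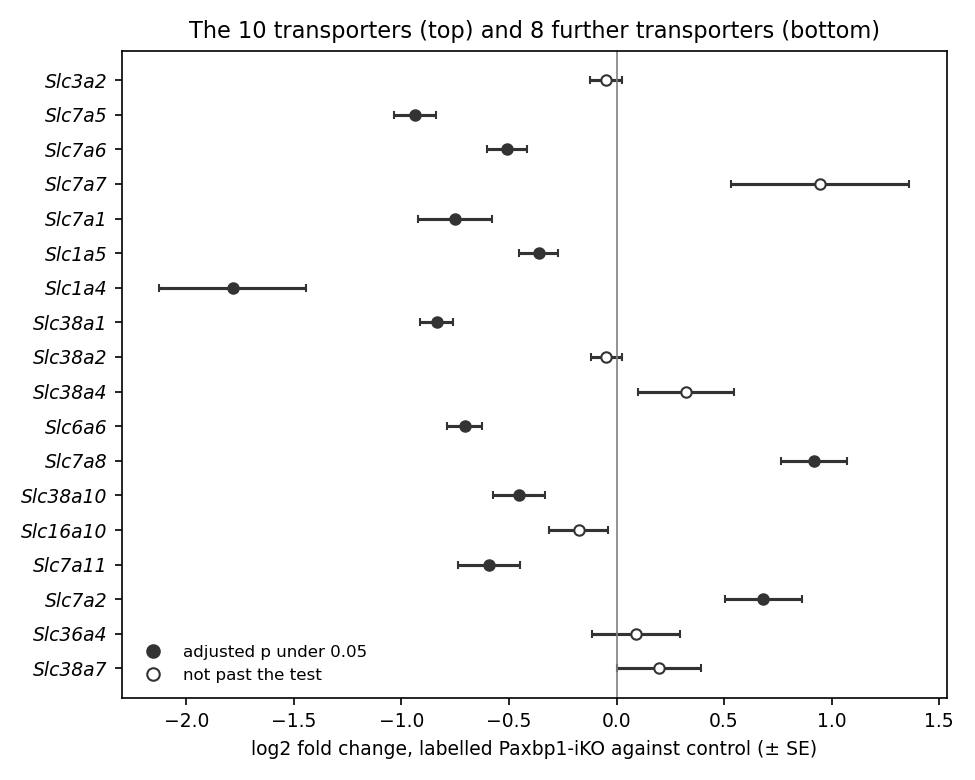
Log2 fold change (± SE) of iKO-labelled against control libraries for the 10 transporters and for the 8 further amino acid transporters with the highest mean FPKM. Filled points passed the test: among the 10 these run from -1.78 for Slc1a4 to -0.36 for Slc1a5, and among the 8 Slc7a8 (0.92) and Slc7a2 (0.68) lie on the other side of 0.

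The 10 transporters spanned a wide range of levels, with Slc3a2 and Slc38a2 first and Slc38a4 and Slc7a7 last, and all 4 of these were not past the test. In the controls, Slc3a2 (506 ± 33.2 FPKM, mean ± SD, n = 3), Slc38a2 (292 ± 10.2) and Slc1a5 (109.7 ± 13.3) were each separated from the next by more than their spread. Slc7a5 (45.4 ± 2.40) and Slc7a6 (40.3 ± 2.10) followed with nearly touching ranges, but within each control library Slc7a5 was the higher. Slc38a1 (20.2 ± 0.689), Slc7a1 (20.03 ± 4.56) and Slc1a4 (18.2 ± 3.40) had overlapping ranges, although Slc7a1 was above Slc1a4 within each control. Slc38a4 (4.71 ± 0.903) and Slc7a7 (0.733 ± 0.229) came last. In the iKO-labelled libraries Slc7a6 (28.6 ± 2.29) stood ahead of Slc7a5 (24.0 ± 2.05), and Slc1a4 (5.35 ± 2.37) overlapped Slc38a4 (5.96 ± 1.20). The order of genes with close levels depends on the gene lengths behind the FPKM, which were not given.

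As a share of the counts of named genes, the 10 genes together took 0.428%, 0.393% and 0.387% in the controls. In iKO 1 to 3 that share was 0.372%, 0.389% and 0.392%, so the groups overlapped. The scaled levels did not overlap: the 10 genes summed to 1110, 1045 and 1019 FPKM in the controls and to 943, 954 and 973 FPKM in iKO 1 to 3. Slc3a2 and Slc38a2 made up 75.9%, 75.0% and 75.5% of this sum in the controls and 81.5%, 81.7% and 81.8% in the iKO-labelled libraries. The share of Slc7a5 went from 4.30% ± 0.248 to 2.50% ± 0.178 (mean ± SD, n = 3) and that of Slc1a4 from 1.72% ± 0.278 to 0.558% ± 0.245. These shares describe the transcripts within each library, depend on the gene lengths behind the FPKM and were not tested.

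Other amino acid transporters moved in both directions. Of 45 listed, 44 were in the table and 26 were abundant enough to test: 3 fell, 3 rose and 20 were not past the test, which is 23.1% called against 20.4% of all genes. The median log2 fold change was 0.12. Of the 8 with the highest mean FPKM, Slc6a6, the taurine transporter, fell from 81.9, 75.4 and 74.3 FPKM in the controls to 51.9, 45.5 and 46.2 FPKM in iKO 1 to 3 (-0.71 ± 0.08, adjusted p = 0.000967). Slc38a10, a putative member of the SNAT family, fell less (-0.45 ± 0.12, adjusted p = 0.0325), a call that ended without any single library but control 3 (adjusted p 0.0575 to 0.105 without those 5). The carriers Slc16a10 for aromatic amino acids (-0.18 ± 0.14), Slc38a7 (0.20 ± 0.20) and Slc36a4 (0.09 ± 0.20) were not past the test. The remaining gene that rose, Slc38a6, is outside these 8 and named after its value was seen (0.244, 0.195 and 0.426 FPKM in the controls, 1.40, 0.747 and 0.689 FPKM in iKO 1 to 3, adjusted p = 0.031). The count of 6 called was 2 or 3 without control 1, control 2 or any single iKO-labelled library, and 10 with DESeq2.

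Genes of the amino acid response changed in both directions. This response runs from the kinase encoded by Eif2ak4, which senses uncharged transfer RNA, through the transcription factor ATF4, which induces amino acid synthesis genes and several transporters. Of 26 genes, all tested, 10 fell and 5 rose, 57.7% called against 20.4% of all tested genes, with a median log2 fold change of -0.38. Atf4 itself was at 338, 363 and 357 FPKM in the controls and 423, 396 and 371 FPKM in iKO 1 to 3. The groups did not overlap, yet the log2 fold change of 0.15 ± 0.07 was not past the test (adjusted p = 0.164); it was past it with library totals (0.285, adjusted p = 0.0165), upper-quartile factors and the stricter count filter, within a range of 0.0165 to 0.384 over the alternatives. Shmt2, which interconverts serine and glycine, fell (-0.72 ± 0.11, adjusted p = 0.00392). Of the serine synthesis enzymes, named after their values were seen, Phgdh (-1.08 ± 0.11) and Psat1 (-1.31 ± 0.11) fell, and Psph was not past the test (-0.35 ± 0.16, adjusted p = 0.183).

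Among the 6 response genes with the highest mean FPKM, Eif4ebp1, a repressor of cap-dependent translation, fell from 402, 388 and 410 FPKM to 272, 260 and 248 FPKM (-0.64 ± 0.07, adjusted p = 0.000734). Mthfd2, of mitochondrial folate metabolism, fell by 0.42 ± 0.08 on the log2 scale (adjusted p = 0.00802), and Cebpb, a partner of ATF4, had a log2 fold change of 0.23 ± 0.13 (adjusted p = 0.28). Sesn2, a leucine-binding inhibitor of mTORC1 signalling, rose from 83.5, 86.2 and 70.4 FPKM in the controls to 144, 124 and 137 FPKM in iKO 1 to 3 (0.74 ± 0.10, adjusted p = 0.00207). The other risers, named after their values were seen, were the stress genes Ddit4 (1.09), Nupr1 (0.94) and Ddit3 (0.68) and the ATF4 partner Cebpg (0.56). Among those that fell, Chac1, which degrades glutathione, and Trib3, an inhibitory pseudokinase, were also named after their values were seen (-1.32 and -0.77), while Asns, the asparagine synthetase, named likewise, was not past the test (0.36 ± 0.11, adjusted p = 0.0594).

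**Figure D4:**
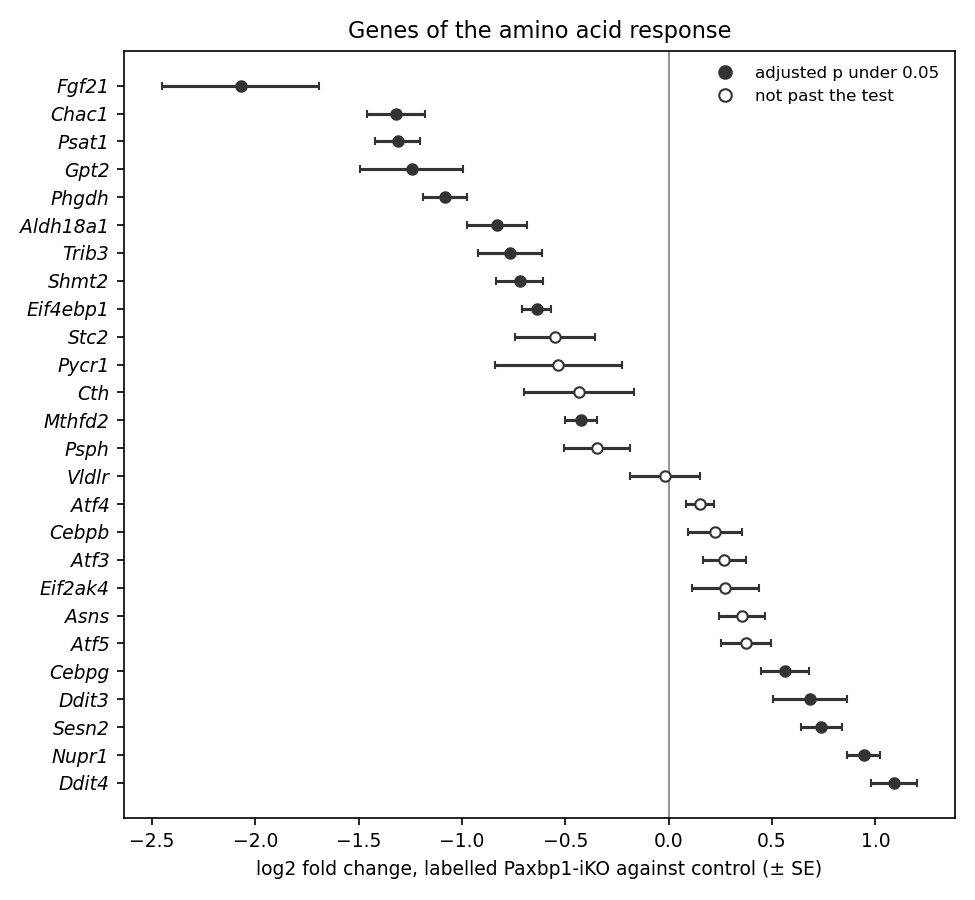
Log2 fold change (± SE) of iKO-labelled against control libraries for the 26 genes of the amino acid response, ordered by size, with filled points past the test. The 10 that fell run from Fgf21 (-2.07) to Mthfd2 (-0.42) and the 5 that rose from Cebpg (0.56) to Ddit4 (1.09), with Atf4 (0.15) between them.

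Factors known to act on transporter genes or proteins, not all of them on amino acid transporters, were also examined. Of 11 tested, 3 fell and 2 rose, 45.5% called against 20.4% of all tested genes, with a median log2 fold change of -0.13. Myc, which raises transcription of several transporter genes, was at 632, 588 and 599 FPKM in the controls and at 320, 410 and 410 FPKM in iKO 1 to 3 (-0.69 ± 0.10, adjusted p = 0.00277). The ubiquitin ligases that remove transporters from the membrane went in opposite directions: Nedd4 fell by 0.81 ± 0.08 on the log2 scale and Nedd4l rose by 1.01 ± 0.10, each with an adjusted p of 0.000566. Txnip, which restrains glucose uptake, rose by 1.22 ± 0.21 (adjusted p = 0.00574). On unfiltered log2(FPKM + 1), and under no other alternative, the calls of Myc (adjusted p = 0.0649), Txnip (0.0947), Shmt2 (0.0682), Mthfd2 (0.0623) and Paxbp1 (0.0801) ended. The fall of Hif1a (-0.49 ± 0.12, adjusted p = 0.0266) was not called under 8 of 17 alternatives, among them the removal of control 1, control 2, iKO 1 or iKO 2 (adjusted p 0.0518 to 0.0872). Nfe2l2 (-0.21), Epas1 (-0.52), Mycn (0.43), Rnf5 (0.18) and Yap1 (-0.13) were not past the test.

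Transcripts of genes that carry the amino acid signal to mTORC1 showed no common direction, in a list that holds activators and inhibitors of it alike. Sesn2 was counted with the response genes above and is not in this list. Of 31 tested, 6 rose, 3 fell and 22 were not past the test, 29% called against 20.4% of all tested genes, with a median log2 fold change of 0.09. The members with the highest mean FPKM, Sec13 (-0.14 ± 0.09), Seh1l (0.06 ± 0.09), Lamtor5 (-0.14 ± 0.12) and the GTPase Rraga (0.02 ± 0.11), were not past the test. Those that fell, named after their values were seen, were the mTORC1 activator Rheb (-0.52), the leucyl-tRNA synthetase Lars (-0.85) and Tsc2 (-0.82). The 6 that rose, likewise named after their values were seen, were Tsc1, whose product forms a complex with that of Tsc2 (1.06), Flcn and its partner Fnip1, which act on the Rag GTPases (0.79 and 0.43), Nprl2, of a complex that inhibits them (1.27), Sesn1, a relative of Sesn2 (0.51), and Rragb. Rragb, itself a Rag GTPase, was near the detection limit in the controls, with 1, 0 and 5 counts against 34, 62 and 52 in iKO 1 to 3.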

How the data were processed

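RNA was measured in 6 libraries made by Smart-Seq2, which does not mark strand. Per the submitters' processing notes, the build was mm10 and the tools were STAR, Trim Galore, DESeq2 and featureCounts from Subread. Their versions, the annotation, the strand setting and the handling of multi-mapping reads were not given in the sources used here. The authors deposited raw read counts per gene and FPKM; in the deposited FPKM, libraries are scaled by size factors instead of totals (largest deviation 9.3e-15 over the 11939 genes that had 20 or more counts in each library). The 551 rows without a gene name, 0.108% to 0.123% of counts, were left out.

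Counts were tested in R 4.3.3 with edgeR 4.0.16: filterByExpr (minimum count 10, minimum total 15), TMM factors, a quasi-likelihood fit on group over all 6 libraries and Benjamini-Hochberg adjustment over 16252 genes. Standard errors are the fold change over the square root of F. Alternatives used DESeq2 1.42.0, limma 3.58.1 (voom, and log2(FPKM + 1) or log2(FPKM + 0.1) for genes averaging 1 FPKM or more, or unfiltered), RLE, upper-quartile or total scaling, other filters (no filter, or at least 5 CPM in 3 libraries), the replicate number as a block and each library left out.

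The transporters, gene lists and markers were chosen with earlier results of these data known. Named were the 10 transporters, Paxbp1, the tested list members with the highest mean FPKM (8 transporters, 6 response and 4 sensing genes), all tested regulators, and up to 3 markers of a described list; others are marked. Slc66a1, Hba-a1 and Hbb-bs were not analysed here. Positions are from GENCODE M21 (GRCm38), promoters from RefSeq.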

Additional observations from a re-analysis of the deposited data

How the results depend on the processing

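Of 662 values for 39 named genes under 17 alternatives, 593 kept their direction and their side of the threshold, 51 lost their call, 3 gained one and 15 changed sign. Sign changes were in genes not past the test: Slc3a2 (0.0303 with upper-quartile factors, 0.085 with library totals, 0.022 with the filter of at least 5 CPM in 3 libraries, 0.0103 without control 1, and from -0.101 to 0.0103 over single libraries left out), Slc38a2 (0.032, 0.085 and 0.023 under the same settings, 0.0044 without iKO 3, from -0.114), Slc36a4 (-0.062 without control 1, -0.038 without iKO 1, up to 0.204), Seh1l (-0.0074 without iKO 1, up to 0.113), Rraga (-0.057 without control 1, -0.038 without iKO 3, up to 0.0937) and Yap1 (0.0039 without control 3, 0.022 without iKO 3, from -0.322). On log2(FPKM + 1) with no filter, which adds low genes to the test, 1401 of all genes were called, and 3 of the 10 transporters, 1 other transporter, 9 response genes and 2 regulators. DESeq2 called 10 other transporters. With single libraries left out, counts ran from 2053 (without iKO 2; 2103 without iKO 3) to 2816 for all genes, from 4 to 6 for the 10 transporters and from 2 to 6 for the other transporters. Of all calls 39.9% were higher (1324 against 1991 lower), but 57.1% with library totals (1920 against 1445) and 49.6% with upper-quartile factors (1630 against 1656). With the replicate number as a block (replicate block), 2215 genes, 4 of the 10 transporters (without Slc7a1 and Slc1a5) and 2 other transporters were called. Deviations of same-numbered libraries correlated at -0.1, -0.0092 and -0.068, so the numbers were not taken to pair them, and none of the controls correlated best with its own number. Depth limits Slc7a7, at 50 to 164 counts.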
